A study of Mus musculus with 15 samples.

Results

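The mRNAs of 10 oocyte factors and zona proteins were followed in whole ovaries of 6-month-old mice, as an indirect readout of the follicle reserve and of growing oocytes. Follicles were not counted here. They were the genes listed as Figla, Nobox and Sohlh1, which are early oocyte transcription factors, and as Gdf9, Bmp15, Zp1, Zp2, Zp3, Oosp1 and Nlrp5, which belong to growing oocytes. The members were taken by symbol, and all 10 were found once each among the 27907 genes measured. The HSD17B1-KI group held 7 females homozygous for the Ser143Ala mutation of HSD17B1, the enzyme that converts estrone to estradiol in the ovary, and the WT group held 8 wild-type females. Both groups came from crosses of heterozygous mice of 1 line made by CRISPR/Cas9, and the mutation was in the germ line and therefore in every cell type of the ovary. All mice were in estrus, and 1 library was made per mouse from ovarian RNA. The HSD17B1-KI libraries held 39092867 to 69972608 recovered reads, and the WT libraries held 26544745 to 72362981.

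Oocytes rest in primordial follicles, which form the reserve, until they are recruited to grow. FIGLA, NOBOX and SOHLH1 are germ cell transcription factors that are needed for the formation of primordial follicles or for the first steps of growth. The growing oocyte secretes GDF9 and BMP15, growth factors of the TGF-beta family that act on the surrounding granulosa cells, and builds the zona pellucida, the glycoprotein coat made from ZP1, ZP2 and ZP3 in the mouse. It also stores maternal proteins such as NLRP5 (MATER), which the early embryo uses, and makes OOSP1, an oocyte-secreted protein.

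None of the 10 genes was DE between HSD17B1-KI and WT ovaries, with limma-trend at an adjusted p under 0.05, where 0.214% of the 21525 genes tested were DE. The median log2 fold change was 0.28 over the 3 early genes and 0.09 over the 7 growing genes, against -0.02 over all genes tested. The growing genes rose and fell together from mouse to mouse in both genotypes, and Nobox followed them. Within the 7 HSD17B1-KI mice, Figla and Sohlh1 had Pearson's r of 0.66 and 0.60 with Nobox, and HSD17B1-KI 1 was the highest of them for all 3 genes. Within WT they did not, with r of -0.23 and -0.22. The r of Figla with Sohlh1 was 0.82 within HSD17B1-KI and 0.30 within WT. For both genes, the WT mouse with the highest zona mRNA levels was among the lowest. In whole ovaries, fewer oocytes and less mRNA per oocyte cannot be told apart. The counts are scaled per library, so they are relative to the other RNA of the ovary and are not amounts per ovary. The paper reports a lower weight of HSD17B1-KI ovaries at the age studied here. Whether the reserve per ovary differed therefore cannot be read from these values.

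The bases upstream of the protein-coding starts are shown first. FIGLA and SOHLH1 belong to the basic helix-loop-helix factors, which bind E-boxes, and NOBOX is a homeodomain factor. Promoter entries from RefSeq (build GRCm38.p6) were found for 7 of the 10 genes and not for Gdf9, Zp1 or Zp2. Each sequence is written 5′ to 3′ on the strand of the gene and ends at the last base before the first exon of the protein-coding transcript in GENCODE M21, or 3 bases before it for Bmp15. The Figla window lies within the annotated gene, which begins at base 86016171, while the protein-coding transcript starts at base 86017191. Capitals mark E-boxes (CANNTG, which reads the same on both strands as a pattern) and 3 elements bound by NOBOX, searched on both strands. The NOBOX elements searched were TAATTG as the first, the letters TAGTTG as the second, and the palindrome TAATTA as the third. No marked motif overlapped another.
The early genes were Figla at chr6:86016941-86017190 (+ strand), Sohlh1 at chr2:25847249-25847498 (- strand) and Nobox at chr6:43309555-43309804 (- strand).
Figla: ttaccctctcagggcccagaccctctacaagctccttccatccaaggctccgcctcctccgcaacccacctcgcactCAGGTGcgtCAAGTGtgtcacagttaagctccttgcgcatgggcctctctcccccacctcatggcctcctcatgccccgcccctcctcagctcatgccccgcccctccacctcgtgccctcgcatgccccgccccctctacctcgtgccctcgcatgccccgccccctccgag
Sohlh1: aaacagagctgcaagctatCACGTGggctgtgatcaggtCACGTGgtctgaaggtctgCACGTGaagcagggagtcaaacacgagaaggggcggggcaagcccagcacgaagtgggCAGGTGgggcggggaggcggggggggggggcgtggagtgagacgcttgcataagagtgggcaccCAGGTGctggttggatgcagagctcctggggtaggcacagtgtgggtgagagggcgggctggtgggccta
Nobox: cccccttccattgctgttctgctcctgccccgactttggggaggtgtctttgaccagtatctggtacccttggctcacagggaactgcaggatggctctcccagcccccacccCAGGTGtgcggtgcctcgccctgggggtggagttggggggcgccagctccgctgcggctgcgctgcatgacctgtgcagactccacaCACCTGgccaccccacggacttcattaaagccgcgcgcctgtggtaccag
The growing genes were Zp3 at chr5:135979855-135980098 (+ strand), Bmp15 at chrX:6320725-6320974 (- strand), Nlrp5 at chr7:23385639-23385888 (+ strand, the first of its 2 starts) and Oosp1 at chr19:11691151-11691301 (- strand).
Zp3: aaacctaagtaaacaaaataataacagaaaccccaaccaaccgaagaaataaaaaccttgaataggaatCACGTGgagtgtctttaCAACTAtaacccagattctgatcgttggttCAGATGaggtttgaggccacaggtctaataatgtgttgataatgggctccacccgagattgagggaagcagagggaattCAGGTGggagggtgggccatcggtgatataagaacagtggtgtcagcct
Bmp15: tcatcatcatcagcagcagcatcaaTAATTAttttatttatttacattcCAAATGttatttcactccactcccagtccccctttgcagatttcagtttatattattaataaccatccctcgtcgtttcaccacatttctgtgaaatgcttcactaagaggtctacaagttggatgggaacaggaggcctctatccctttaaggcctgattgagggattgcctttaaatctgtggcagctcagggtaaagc
Nlrp5: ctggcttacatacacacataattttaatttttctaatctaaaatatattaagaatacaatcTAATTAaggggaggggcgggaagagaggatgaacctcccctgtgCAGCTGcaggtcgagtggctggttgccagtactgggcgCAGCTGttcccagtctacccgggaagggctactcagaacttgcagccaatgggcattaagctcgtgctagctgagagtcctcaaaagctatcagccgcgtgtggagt
Oosp1: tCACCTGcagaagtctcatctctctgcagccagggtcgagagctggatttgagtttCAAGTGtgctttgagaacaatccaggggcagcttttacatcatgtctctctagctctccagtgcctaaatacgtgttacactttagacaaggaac
The printed stretches were 250 bases long, except for 244 bases of Zp3 and 151 bases of Oosp1, which end where the GENCODE exon begins. All 7 windows of 250 bases held an E-box, and so did 66.2% of the 32817 windows of that length in the table, so the motif was common. Sohlh1 had 5 E-boxes, 3 of them CACGTG, where the median over all windows was 1. A NOBOX element was in 3 of the 7 windows and in 16.1% of all windows. The one in Zp3 was TAGTTG, which 5.70% of windows held, and those in Bmp15 and Nlrp5 were TAATTA, which 4.85% held. TAATTG was in none of the 7 and in 7.17% of all. These matches describe the letters only.

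Before the members, the libraries were compared by markers of the other cell types an ovary sample can hold. The summed level of 8 granulosa markers ran from 123014 to 346718 normalized counts in HSD17B1-KI and from 140765 to 336441 in WT, and all 8 were detected. For 5 luteal markers, the sums were 49268 to 139064 in HSD17B1-KI and 25279 to 133266 in WT. The 8 oviduct markers summed to 183 to 27089 in HSD17B1-KI and to 184 to 236348 in WT. WT 1 and WT 8 stood apart with Ovgp1, the oviduct glycoprotein, at 203320 and 127890 normalized counts. Without these 2 mice, 0 members were DE with limma-trend, and the median log2 fold changes were 0.36 for the early and 0.09 for the growing genes. Hsd17b1 itself ran from 5459 to 17386 normalized counts in HSD17B1-KI and from 6480 to 14111 in WT. A point mutation does not have to change this level, so it was no check of the labels.

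FIGLA, the factor in the germline alpha, is needed for primordial follicles to form and activates the zona genes. The gene (ENSMUSG00000030001, GRCm38 chr6:86016171-86020996, + strand) had 31.2, 36.9 and 51.1 normalized counts as the lowest, median and highest value in HSD17B1-KI. In WT, the lowest, median and highest were 21.7, 29.6 and 40.7. The groups overlapped, although 3 of 7 HSD17B1-KI values exceeded the highest WT value and 5 of 8 WT values lay under the lowest HSD17B1-KI value. The mean of WT was exceeded in 7 of 7 HSD17B1-KI mice. The means were 39.5 ± 7.54 (SD, n = 7) for HSD17B1-KI and 30.0 ± 5.71 (SD, n = 8) for WT. The log2 fold change was 0.39 (SE 0.17, 95% interval 0.03 to 0.75), with an unadjusted p of 0.0372 and an adjusted p of 0.462 with limma-trend. The exact permutation test over all 6435 splits of the mice, two-sided, gave p = 0.0152, or 0.344 adjusted over all genes tested. Figla was thus not DE. It was the only 1 of the 10 members with an unadjusted p under 0.05, as were 10% of all genes tested with limma-trend and 10.1% with the exact permutation test, so this share was that of the background. The gene rested on 18 to 55 recovered reads per mouse, which makes it, with Sohlh1, the least precisely counted member.

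SOHLH1, which is upstream of the other early factors in the germ cell, gave the same direction with more spread. The gene (ENSMUSG00000059625, chr2:25842995-25847248, - strand) had a lowest value of 40.3, a median of 55.3 and a highest of 95.2 normalized counts in HSD17B1-KI. The WT values were 34.9, 54.9 and 62.0. HSD17B1-KI 1 and HSD17B1-KI 4 were above every WT mouse, 3 WT mice were below every HSD17B1-KI mouse, and the medians of the groups were close. The means were 60.9 ± 18.6 (SD, n = 7) and 49.6 ± 12.3 (SD, n = 8), a log2 fold change of 0.28 (SE 0.21, 95% interval -0.17 to 0.72) with an adjusted p of 0.710 with limma-trend. The exact permutation test gave p = 0.195.

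NOBOX, the homeodomain factor that activates Gdf9 and other genes of the oocyte, was the most abundant of the early factors. Its gene (ENSMUSG00000029736, chr6:43303674-43309554, - strand) had 282, 419 and 534 normalized counts as lowest, median and highest value in HSD17B1-KI and 347, 400 and 556 in WT. The groups lay over each other, with HSD17B1-KI 5 below every WT mouse and WT 4 above all others. The means were 429 ± 84.4 (SD, n = 7) and 418 ± 66.7 (SD, n = 8). The log2 fold change of 0.02 (SE 0.13, 95% interval -0.26 to 0.31) had an adjusted p of 0.970 with limma-trend and an exact permutation p of 0.860.

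**Figure D1:**
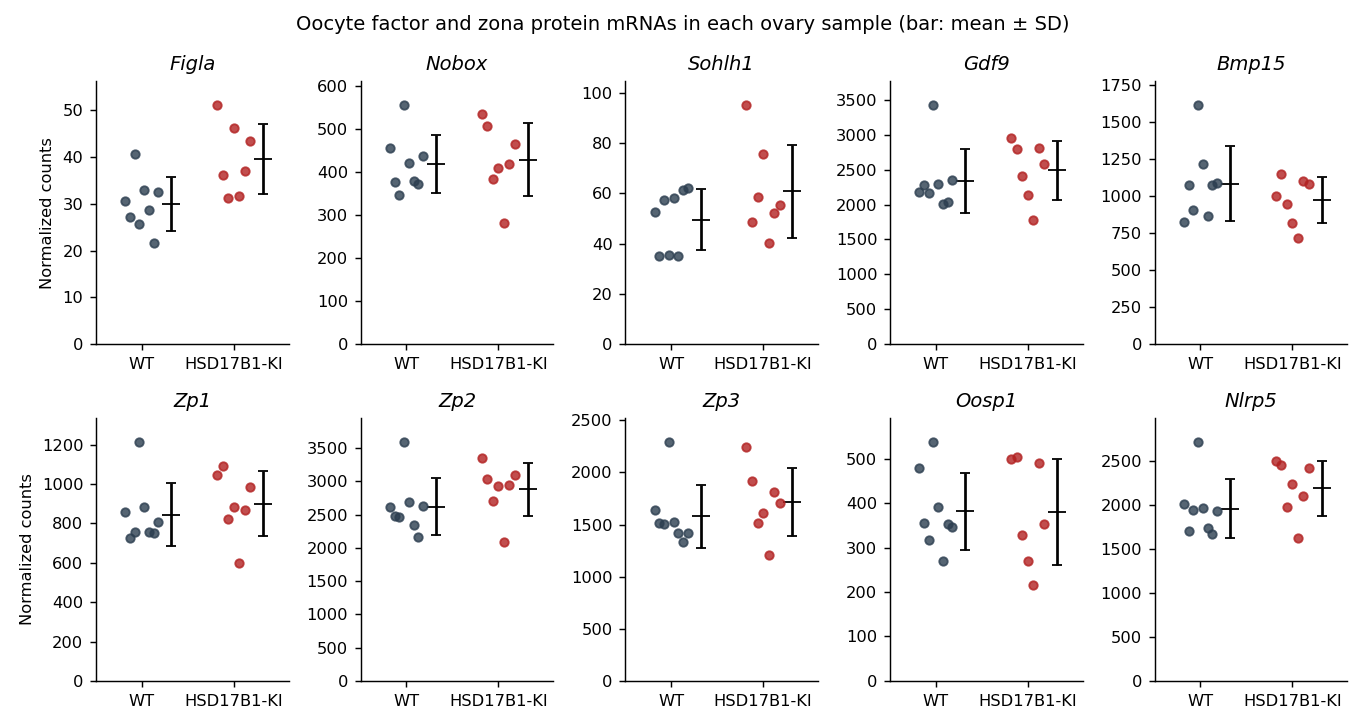
Normalized counts of the 10 mRNAs (y axis, from 0) in each of 8 WT and 7 HSD17B1-KI ovaries (1 point per mouse), with mean ± SD as the black bar. The groups overlap in each panel, WT 4 is the top WT point for Nobox and all growing genes, and for Figla 3 HSD17B1-KI points lie above all WT points.

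Among the oocyte-secreted growth factors, Gdf9 was slightly higher and Bmp15 slightly lower in mean in HSD17B1-KI, and neither difference exceeded the spread. GDF9 is needed for follicles to pass the primary stage. Its gene (ENSMUSG00000018238, chr11:53431023-53437904, + strand) ran from 1777 over a median of 2578 to 2953 normalized counts in HSD17B1-KI and from 2013 over 2228 to 3425 in WT. The highest of all mice was WT 4 and the lowest HSD17B1-KI 5. The means were 2491 ± 419 (SD, n = 7) and 2340 ± 454 (SD, n = 8), with a log2 fold change of 0.09 (SE 0.12), an adjusted p of 0.856 with limma-trend and an exact permutation p of 0.497.

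BMP15, which acts with GDF9 on granulosa and cumulus cells, is encoded on chromosome X. Bmp15 (ENSMUSG00000023279, chrX:6314107-6320721, - strand) ran from 719 over a median of 1003 to 1153 normalized counts in HSD17B1-KI and from 827 over 1078 to 1618 in WT. The groups overlapped, with 2 of the 7 HSD17B1-KI mice below every WT mouse and none above the 2 highest WT mice, WT 4 and WT 5. The means were 976 ± 158 (SD, n = 7) and 1085 ± 253 (SD, n = 8). The log2 fold change of -0.14 (SE 0.14, 95% interval -0.43 to 0.16) had an adjusted p of 0.792 with limma-trend and an exact permutation p of 0.370. Without WT 4, the log2 fold change was -0.05.

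The zona genes were each higher in mean in HSD17B1-KI by a log2 fold change of 0.09 to 0.14, which was less than the spread. ZP1 crosslinks the filaments that ZP2 and ZP3 form. Zp1 (ENSMUSG00000024734, chr19:10914287-10920632, - strand) had a lowest value of 599, a median of 884 and a highest of 1090 normalized counts in HSD17B1-KI. In WT these were 724, 782 and 1215. The WT mice other than WT 4 lay between 724 and 882, while the HSD17B1-KI mice were spread more widely. The means were 899 ± 164 (SD, n = 7) and 843 ± 160 (SD, n = 8), with a log2 fold change of 0.09 (SE 0.13), an adjusted p of 0.871 with limma-trend and an exact permutation p of 0.535. ZP2 is the zona protein to which sperm bind. For Zp2 (ENSMUSG00000030911, chr7:120126772-120145291, - strand), the lowest, median and highest values were 2084, 2947 and 3348 normalized counts in HSD17B1-KI and 2160, 2544 and 3598 in WT. The groups overlapped, with 6 of 7 HSD17B1-KI values over the mean of WT and HSD17B1-KI 5 below every WT mouse. The means of Zp2 were 2880 ± 401 (SD, n = 7) and 2622 ± 429 (SD, n = 8), with a log2 fold change of 0.14 (SE 0.11), an adjusted p of 0.723 with limma-trend and an exact permutation p of 0.242. ZP3 is the partner of ZP2 in the filament. Zp3 (ENSMUSG00000004948, chr5:135980099-135988624, + strand) had 1211, 1703 and 2245 normalized counts as lowest, median and highest in HSD17B1-KI and 1336, 1506 and 2295 in WT. The top mouse was again WT 4, followed by HSD17B1-KI 1. The means of Zp3 were 1716 ± 326 (SD, n = 7) and 1581 ± 302 (SD, n = 8), with a log2 fold change of 0.11 (SE 0.13), an adjusted p of 0.821 with limma-trend and an exact permutation p of 0.405.

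NLRP5 is part of the subcortical maternal complex, which the embryo needs for its first divisions. Nlrp5 (ENSMUSG00000015721, chr7:23385889-23441922, + strand) had a lowest value of 1626, a median of 2245 and a highest of 2499 normalized counts in HSD17B1-KI and 1667, 1939 and 2723 in WT. The mean of WT was exceeded in 6 of 7 HSD17B1-KI mice, and HSD17B1-KI 5 was the lowest of all. The means were 2192 ± 315 (SD, n = 7) and 1962 ± 334 (SD, n = 8). Among the growing genes this was the highest log2 fold change, 0.16 (SE 0.11, 95% interval -0.07 to 0.40), with an adjusted p of 0.675 with limma-trend and an exact permutation p of 0.180. Oosp1 (ENSMUSG00000041857, chr19:11667460-11691150, - strand) had 216, 354 and 505 normalized counts as lowest, median and highest in HSD17B1-KI and 270, 355 and 539 in WT. The medians were nearly the same, and in HSD17B1-KI 3 mice were near the top of the WT range while 2 were below it. The means were 380 ± 119 (SD, n = 7) and 382 ± 87.4 (SD, n = 8), with a log2 fold change of -0.04 (SE 0.20), an adjusted p of 0.967 with limma-trend and an exact permutation p of 0.847.

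The precision of these comparisons can be read from the 95% intervals of the ratio of HSD17B1-KI to WT. Over the 7 growing genes, the lower bounds ran from 0.729 for Oosp1 to 0.951 for Nlrp5 and the upper bounds from 1.11 for Bmp15 to 1.32 for Nlrp5. For the early genes, the interval was 0.835 to 1.24 for Nobox, 0.890 to 1.65 for Sohlh1 and 1.02 to 1.68 for Figla. Changes of a size within these intervals are compatible with the data of 7 and 8 mice. The same 10 genes were also not DE with edgeR, which called 0.232% of the genes tested, or with DESeq2, which called 2.30% of those to which it gave an adjusted p. By sign, 8 of the 10 log2 fold changes were above 0, against 44.8% of all genes tested. These 8 are not separate measurements, since the growing genes moved together from mouse to mouse.

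**Figure D2:**
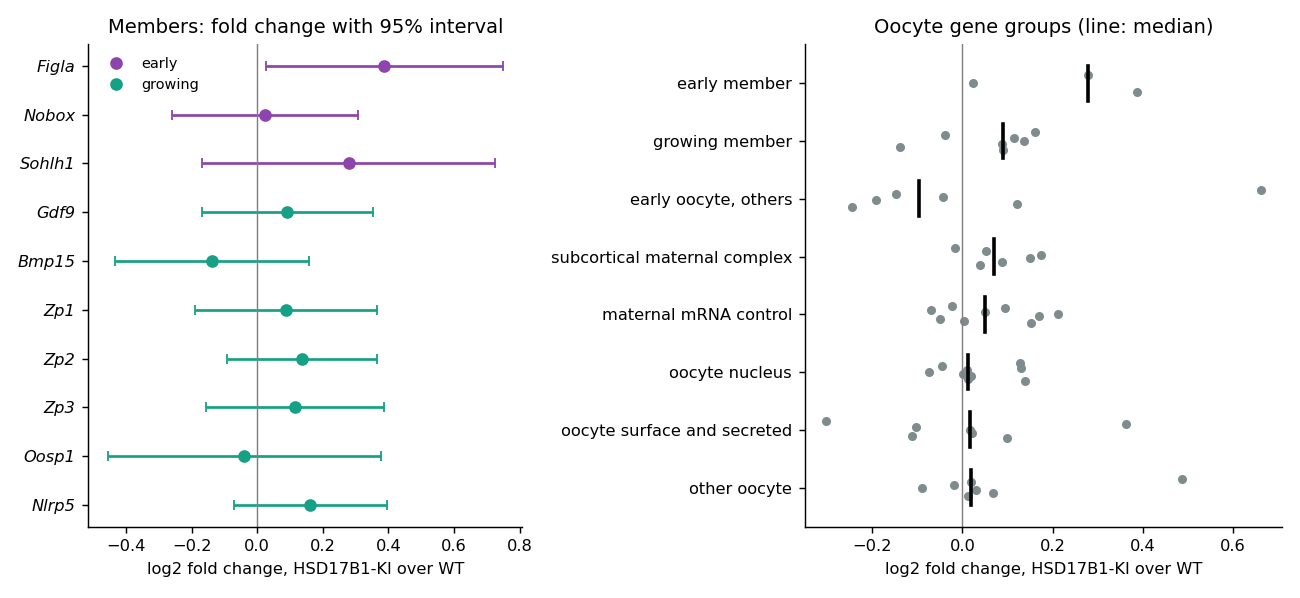
Left, log2 fold change of HSD17B1-KI over WT for each of the 10 genes with its 95% interval from limma-trend. Right, the same quantity for each gene of the oocyte groups (1 point per gene) with the group median as a line, where the 7 growing genes lie between -0.14 and 0.16 and the medians of the other oocyte groups between -0.10 and 0.07.

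The growing genes formed 1 pattern across the mice. After the mean of each genotype was taken away from the log2 values, their 21 pairs had Pearson's r of 0.69 to 0.96 over the 15 mice, with a median of 0.86 and a median Spearman's rho of 0.81. The points share the libraries, their scaling and the amount of oocyte RNA in the sample, so these are descriptions. The pattern rested in part on HSD17B1-KI 5 and WT 4, the lowest and the highest mouse, without which the r of the same pairs ran from 0.27 to 0.91 with a median of 0.70, and those of the 6 pairs with Bmp15 from 0.27 to 0.70 with a median of 0.43. Within the 7 HSD17B1-KI mice the 21 pairs had an r of 0.72 to 0.98, and within the 8 WT mice of 0.56 to 0.96. The highest pair was Zp1 with Nlrp5, at 0.96, and the lowest was Bmp15 with Nlrp5, at 0.69. The mean of the growing genes ran from -0.48 in HSD17B1-KI 5 to 0.30 in HSD17B1-KI 1, and from -0.25 in WT 6 to 0.51 in WT 4, on the log2 scale around the mean of all mice. It averaged 0.03 ± 0.27 (SD, n = 7) over the HSD17B1-KI mice and -0.03 ± 0.23 (SD, n = 8) over the WT mice, so the spread within a genotype was larger than the gap between the genotypes.

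Nobox belonged to this pattern in both genotypes, while Figla and Sohlh1 followed it less closely. The r of Nobox with the growing genes ran from 0.69 with Bmp15 to 0.96 with Zp1 (0.81 to 0.99 within HSD17B1-KI and 0.64 to 0.92 within WT), and with their mean it was 0.93, which was rank 14 among the 18040 genes that averaged 10 or more normalized counts. For Figla, the r with the mean of the growing genes was 0.19 (rank 6316), and for Sohlh1 it was 0.12 (rank 7283). With single growing genes, Figla had an r of 0.20 (Bmp15) to 0.74 (Nlrp5) within HSD17B1-KI. Within WT its r was -0.36 (Bmp15) to 0.07 (Nlrp5). Sohlh1 had an r of 0.11 (Bmp15) to 0.70 (Zp2) within HSD17B1-KI and of -0.47 (Zp3) to -0.05 (Oosp1) within WT. Figla and Sohlh1 had an r of 0.55 with each other (0.82 within HSD17B1-KI and 0.30 within WT), and of 0.26 and 0.24 with Nobox. The r with Nobox was 0.66 and 0.60 within HSD17B1-KI and -0.23 and -0.22 within WT. Of the HSD17B1-KI mice, HSD17B1-KI 1 was the highest for Nobox, Figla and Sohlh1, and HSD17B1-KI 5 was the lowest for Nobox and Sohlh1. How far the r within HSD17B1-KI depended on these mice was not tested, nor was the difference in r between the genotypes. Nobox stood apart from the other early factors most clearly in WT 4, which had its highest level of all mice, 556 normalized counts. The Figla level of 25.6 and the Sohlh1 level of 35.6 in WT 4 were among the lowest. HSD17B1-KI 1 was high for both sets, and it was the highest of all mice for Figla and Sohlh1. Counting error was larger for Figla and Sohlh1, with 18 to 90 recovered reads per mouse, than for Nobox, with 231 to 780. Its part in the lower correlations was not tested. Nobox thus stands with the early genes by its known role and with the growing genes by its profile across these mice.

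**Figure D3:**
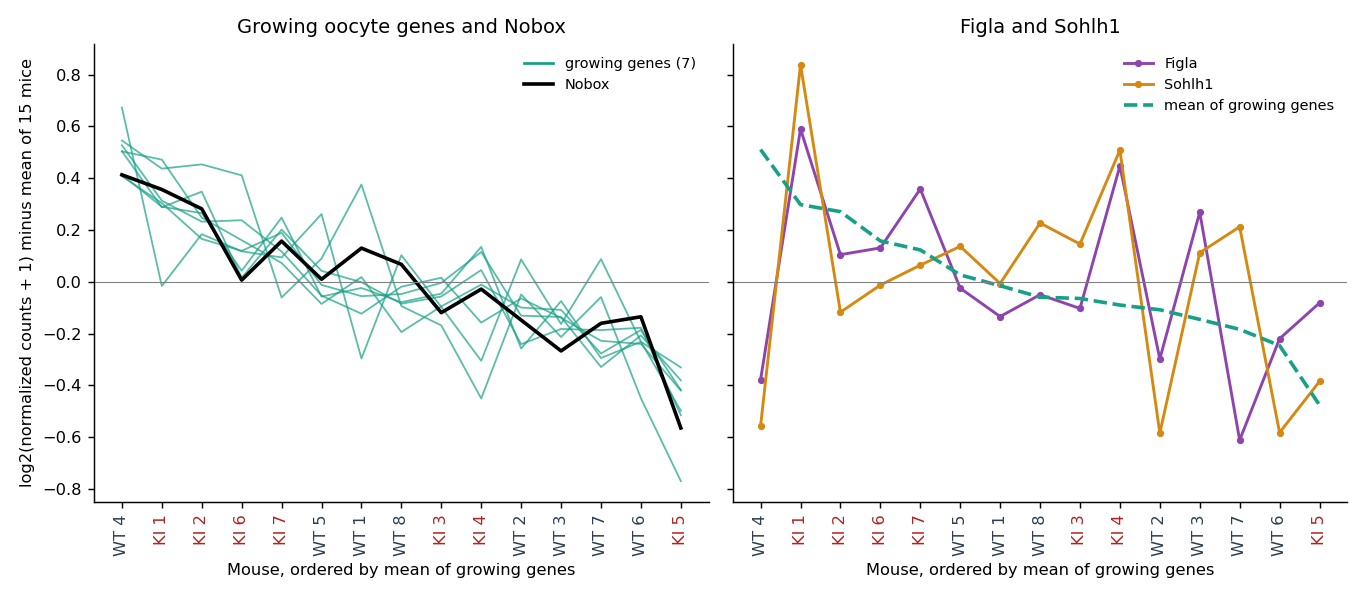
Level of each mRNA in each mouse as log2(normalized counts + 1) minus its mean over the 15 mice (y axis), with the mice ordered by the mean of the growing genes (x axis, HSD17B1-KI labels in red and WT labels in dark blue). Left, the lines of the 7 growing genes and of Nobox fall together from WT 4 to HSD17B1-KI 5. Right, Figla and Sohlh1 are low in WT 4 and high in HSD17B1-KI 1 and 4.

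The mRNAs of the zona proteins stayed in nearly fixed proportion within each mouse. Per kilobase of exon, the ratio of Zp2 to Zp1 averaged 2.60 ± 0.182 (SD, n = 7) for HSD17B1-KI and 2.51 ± 0.145 (SD, n = 8) for WT, and over all 15 mice it lay between 2.25 and 2.80. The ratio of Zp3 to Zp1 was 2.84 ± 0.249 and 2.79 ± 0.182, and that of Zp2 to Zp3 was 0.918 ± 0.0699 and 0.903 ± 0.0519. The genotype means of these ratios differed by less than 1 SD. Some other pairs of members were as close, so this was not particular to the zona genes. The SD of the log2 ratio over the 15 mice was 0.060 for Zp2 to Nlrp5 and 0.081 for Nobox to Zp1. It was 0.094 to 0.106 for the zona pairs. The ratio of Bmp15 to Gdf9 was 0.230 ± 0.0154 (SD, n = 7) in HSD17B1-KI, with a range of 0.199 to 0.246, and 0.271 ± 0.0310 (SD, n = 8) in WT, with a range of 0.222 to 0.311. The ranges overlapped, with HSD17B1-KI 1 below every WT mouse and the other 6 HSD17B1-KI mice in the lower part of the WT range. This ratio was singled out after its values were seen and is given without a test. The ratio of Nobox to Figla, singled out in the same way, was 4.39 ± 0.736 in HSD17B1-KI and 5.79 ± 1.52 in WT.

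**Figure D4:**
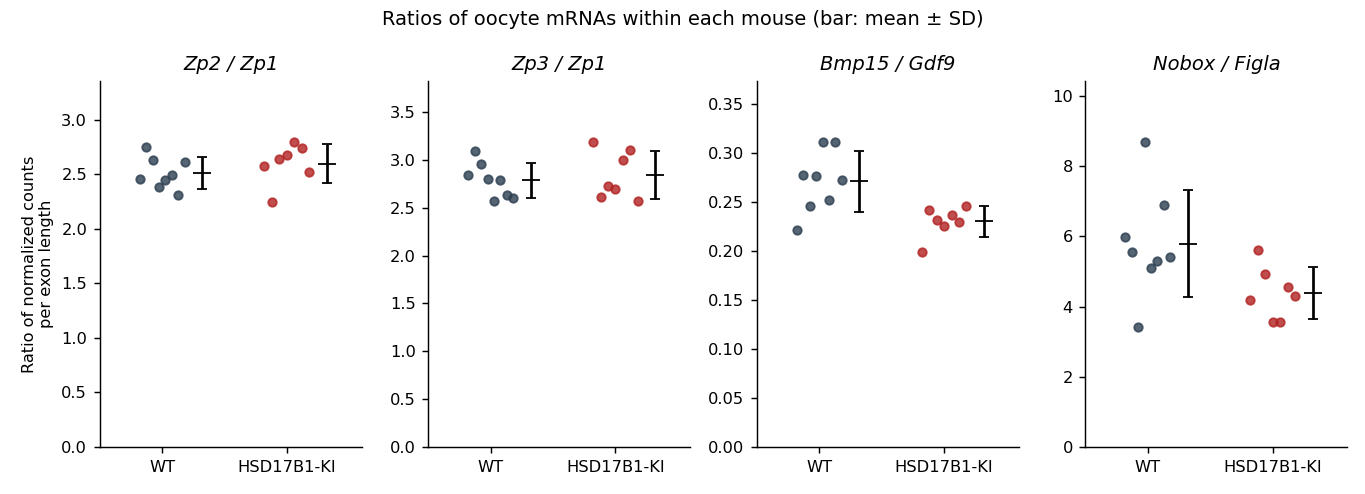
Ratios of mRNA levels per exon length within each mouse (y axis, from 0), 1 point per mouse, with mean ± SD as the black bar. The zona ratios of both genotypes lie over each other, and the HSD17B1-KI points of Bmp15 to Gdf9 run from 0.199, below every WT point, to 0.246, within the WT range of 0.222 to 0.311.

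In level per kilobase of exon, averaged over the 15 mice, Gdf9 was first with 1344 normalized counts, followed by Zp3 with 1243, Zp2 with 1123, Nlrp5 with 588 and Zp1 with 443. Then came Oosp1 with 392, Bmp15 with 338, Nobox with 224, Figla with 45.4 and Sohlh1 with 42.6. Zp2 was above Nlrp5, Nlrp5 above Zp1, Bmp15 above Nobox and Nobox above Figla in 15 of 15 mice. Gdf9 was above Zp3 in 12 mice, Zp3 above Zp2 in 14, Zp1 above Oosp1 in 13 and Oosp1 above Bmp15 in 12. Figla and Sohlh1 could not be ordered, since Figla was above Sohlh1 in 9 of 15 mice.

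**Figure D5:**
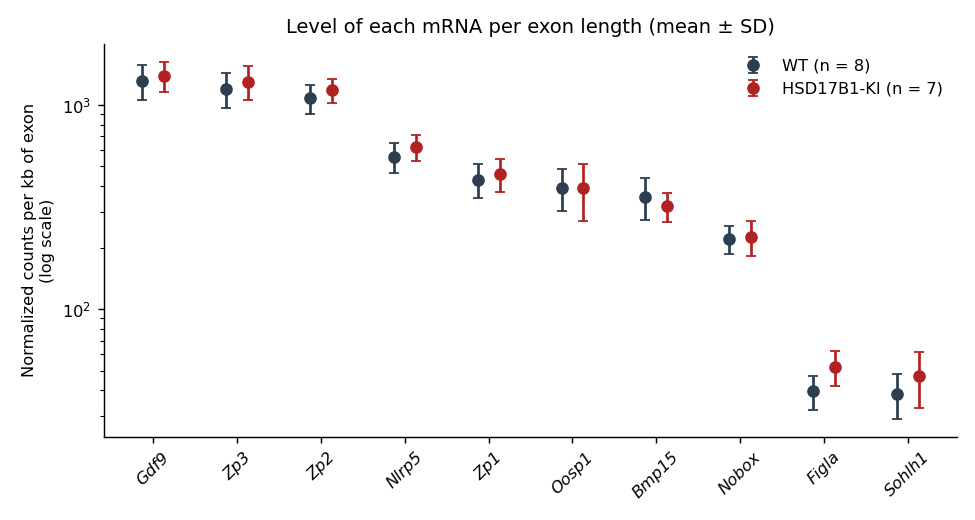
Mean level of each mRNA in normalized counts per kilobase of exon (y axis, log scale) in 8 WT and 7 HSD17B1-KI ovaries, with the SD as error bars. Gdf9, Zp3 and Zp2 are highest, Figla and Sohlh1 are lowest, and the genotypes overlap for every gene.

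Of 44 further genes of the oocyte, 0 were DE with limma-trend, edgeR or DESeq2, and their median log2 fold change was 0.02. Above 0 were 29 and below 0 were 15, or 65.9% above 0 against 44.8% of all genes tested. The 44 are not separate measurements either, since many moved with the growing members, with a median r of 0.78 to the mean of those. With limma-trend, 1 of the 44 had an unadjusted p under 0.05, which is 2.27% against 10% of all genes tested. This was Kit, the receptor for the granulosa cell ligand that starts oocyte growth, which other cells of the ovary also express. The HSD17B1-KI ovaries held 5151 ± 2187 (SD, n = 7) normalized counts of Kit and the WT ovaries 3099 ± 1123 (SD, n = 8), with an adjusted p of 0.483 with limma-trend and an exact permutation p of 0.0690. With the exact permutation test, also 1 of 44 against 10.1% of all genes tested, it was Gpr3, the receptor that holds the oocyte in meiotic arrest, at 37.5 ± 7.61 (SD, n = 7) and 46.0 ± 7.32 (SD, n = 8) normalized counts, p = 0.0347, with an adjusted p of 0.577 with limma-trend.

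None of the 6 other early oocyte genes was DE, and their median log2 fold change was -0.10. The germ cell RNA-binding factor Dazl had a log2 fold change of -0.15 (SE 0.16) and Sohlh2, the partner of SOHLH1, one of -0.25 (SE 0.30). Kit, at 0.66 (SE 0.30), and Lhx8, at 0.12 (SE 0.17), had the sign of Figla and Sohlh1, and the other 4 genes had the opposite sign. The subcortical maternal complex, to which NLRP5 belongs, had a median of 0.07 over 6 other genes. Padi6 had a log2 fold change of 0.17 (SE 0.12), Khdc3 of 0.15 (SE 0.18) and Tle6 of 0.09 (SE 0.09). Genes that store, translate or clear maternal mRNA (9 genes) had a median of 0.05, with Patl2 at 0.17 (SE 0.15), Zar1 at 0.15 (SE 0.14) and Pabpn1l at 0.21 (SE 0.21).

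Genes of the oocyte nucleus (9 genes) had a median log2 fold change of 0.01. There, the histone chaperone gene Npm2 was at 0.14 (SE 0.15), and the homeobox genes Obox5 and Obox1, whose reads can be split among near-identical copies, were both at 0.13 (SE 0.15 and 0.16). Among 7 genes of the egg surface and of secreted factors, the median was 0.02, with Fgf8 at 0.36 (SE 0.30) and Bmp6 at -0.10 (SE 0.14). The 7 remaining oocyte genes also had a median of 0.02, with Oog1, another multicopy gene, at 0.49 (SE 0.31), Nlrp9b at -0.09 (SE 0.12) and Tcl1 at 0.07 (SE 0.15).

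The other oocyte genes followed the growing members to differing degrees, with an r to their mean from -0.29 to 0.97 and a median of 0.78 over the 44 genes. The median was 0.53 over the 6 other early genes and from 0.64 to 0.86 over the other 5 lists. The translation factor gene Eif4e1b had the highest r of all 18040 genes to the mean of the growing members, 0.97. Npm2 followed with 0.97, Zar1 and H1foo with 0.96, Nlrp14 and Astl with 0.95 and Padi6 with 0.94. Lhx8, an early factor like Nobox, had an r of 0.72. Taf4b and Kit, of the same list, were both at 0.62, while the germ cell genes Ddx4, Dazl and Sohlh2 had r of 0.31, 0.44 and -0.29. Low values also occurred outside the early list, at 0.48 for Tle6, 0.42 for Khdc3, 0.35 for Bmp6, 0.25 for Cpeb1, 0.24 for Tbpl2, 0.05 for Oog1 and -0.04 for Dnmt3l. The other oocyte genes therefore did not separate cleanly into early and growing genes by this measure. The granulosa markers moved with the growing genes in part, with an r from 0.17 for Foxl2 to 0.65 for Gja1 and Cyp19a1, and their part in the pattern was not tested. The 8 oviduct markers had r of -0.01 to 0.27.

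GDF9 and BMP15 act through the receptors BMPR2, TGFBR1 and BMPR1B and the SMAD proteins of granulosa cells. Of 10 genes of this set, 0 were DE with limma-trend, edgeR or DESeq2, and the median log2 fold change was -0.08. Smad1, a mediator of BMP signals, averaged 1717 ± 173 (SD, n = 7) normalized counts for HSD17B1-KI and 2422 ± 888 (SD, n = 8) for WT, with 7 of 7 HSD17B1-KI values under the mean of WT. WT 2, at 4358, raised that mean, and the WT median was 2080. Below every WT mouse lay 4 of the 7 HSD17B1-KI mice. The log2 fold change of Smad1 was -0.43 (SE 0.17), with an adjusted p of 0.378 with limma-trend. Tgfbr1, which serves GDF9, was at -0.28 (SE 0.14), adjusted p = 0.527 with limma-trend, and Smad2, which carries the GDF9 signal, at 0.15 (SE 0.08), adjusted p = 0.558.

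Genes that the oocyte induces in cumulus cells were also not DE, 0 of 11 with each of the 3 tools. Their median log2 fold change was -0.20, with 3 above and 8 below 0. Pfkp, an enzyme of glycolysis, averaged 2225 ± 345 (SD, n = 7) normalized counts for HSD17B1-KI, under the mean of WT in 7 of 7 mice, and 2973 ± 570 (SD, n = 8) for WT, with a log2 fold change of -0.41 (SE 0.12) and an adjusted p of 0.219 with limma-trend. With limma-trend, Ptgs2, the prostaglandin synthase of the ovulatory follicle, was at -1.32 (SE 0.58), adjusted p = 0.460. The hyaluronan synthase gene Has2 was at -0.46 (SE 0.33), adjusted p = 0.697. Both were low, with means in HSD17B1-KI and WT of 21 and 64 normalized counts for Ptgs2 and of 16 and 22 for Has2. The genes of this list are also made outside cumulus cells.

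For the other cells of the ovary, 0 of 8 granulosa markers were DE, and 6 were above 0 and 2 below. Inha was at 0.47 (SE 0.28), Foxl2 at 0.26 (SE 0.19) and Amh at 0.30 (SE 0.25) in log2 fold change. Of 5 luteal markers, 0 were DE, and all 5 were above 0. Sfrp4 was at 1.51 (SE 0.51), adjusted p = 0.286 with limma-trend, Lhcgr at 0.85 (SE 0.40) and Prlr at 0.25 (SE 0.25). Of 8 oviduct markers, 0 were DE and all 8 were below 0, with Ovgp1 at -1.96 (SE 1.77), Pax8 at -0.95 (SE 1.16) and Tekt1 at -0.87 (SE 1.15). The part of these cells in the values of the oocyte genes was not tested, apart from the fits without WT 1 and WT 8 and with an oviduct marker score, in which 0 members were DE.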

How the data were processed

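Ovarian mRNA of 7 HSD17B1-KI and 8 WT mice was sequenced from stranded libraries. Per the labels, bcl2fastq 2.20, STAR 2.7.3 and build mm10 were used. The counting program and the annotation release are not given in the sources used here. The authors deposited normalized counts, a signal in which gene counts are divided by a size factor per library. The values were whole multiples of 1 read for 100% of the entries (tolerance 0.01), so whole reads were recovered.

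The 10 members, the gene lists and the groups early and growing were chosen with earlier results of these data known. limma-trend (limma 3.58.1, R 4.3.3) was run on log2(normalized count + 1) for 21525 genes (mean of 2 normalized counts or more), fitting genotype alone, two-sided, with Benjamini-Hochberg adjustment over all genes at 0.05. It called 46 DE genes, and 2153 had an unadjusted p under 0.05. Fold changes are on the log2(normalized count + 1) scale, which understates those of low genes. On recovered reads, edgeR 4.0.16 (quasi-likelihood test, TMM) called 50 and DESeq2 1.42.0 called 456 of 19790. Exact permutation tests, two-sided and on the gap between the mean log2 values, used all 6435 splits, with a smallest possible p of 0.000155, and 0 genes passed adjustment. Simulated data were used to test the scripts. Nothing in the sources says that the mice were from separate litters, and p-values measure the spread between these mice.

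The text names every member, up to 3 genes with the smallest limma p from each other list, and 8 genes most like each profile. Other genes named for their profile, Eif4e1b, H1foo, Nlrp14, Astl, Lhx8, Taf4b, Ddx4, Cpeb1, Tbpl2, Dnmt3l, Gja1 and Cyp19a1, were chosen after their values were seen. Positions and exon lengths (union of basic protein-coding transcripts) came from GENCODE M21, which held 27533 of the 27907 identifiers. Izumo1r was found under its older symbol, Folr4. Of the members, Nlrp5 alone overlapped another annotated gene, a miRNA gene. Python 3.11.15, NumPy 2.4.6, pandas 2.3.3, SciPy 1.17.1 and matplotlib 3.10.9 were used. Alternatives were a pseudocount of 0.1 or 10, no filter or a minimum mean of 10, quantile normalization or upper quartile scaling, array weights, an oviduct marker score as a covariate, a threshold of 0.1, the replicate block, and omission of each mouse in turn. The fit without WT 1 and WT 8 was added after the data were seen.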

Additional observations from a re-analysis of the deposited data

Results flagged for a closer look

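WT 4 stood far above the other 7 WT mice for 5 growing genes, by the gap to the next mouse relative to the range of the group. Gdf9 was 3425 normalized counts in WT 4 and 2346 in the next WT mouse. Zp1 was 1215 against 882, Zp2 was 3598 against 2690, Zp3 was 2295 against 1640, and Nlrp5 was 2723 against 2011. These were 5 of 20 groups of values examined, 1 for each gene and genotype, where chance alone gives about 1 in 20, and the 5 genes are not independent because they move together. No HSD17B1-KI mouse stood apart in the same way. WT 4 had 63201057 recovered reads, within the range of the other WT libraries.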

How the results depend on the processing

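The 10 members and the 44 other oocyte genes were not DE in any of 28 alternatives. Of 270 values of a member's log2 fold change under 27 alternatives, 261 kept their sign, and 9 changed it, all for genes near 0. Over the fits that left out 1 mouse, the log2 fold change of Nobox ran from -0.033 to 0.12 and was below 0 in 3 of them, and that of Oosp1 ran from -0.12 to 0.085 and was above 0 in 4. Oosp1 was also above 0 with quantile normalization, at 0.070, and without WT 1 and WT 8, at 0.00134. The cause was not tested. The adjusted p of Figla ranged from 0.283 with DESeq2 to 0.688 with the replicate block, and its log2 fold change from 0.31 to 0.55.

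Single mice moved the medians. The early median of 0.28 was 0.16 without HSD17B1-KI 1 and at most 0.37, without HSD17B1-KI 5. The growing median of 0.09 was 0.18 without HSD17B1-KI 5, 0.17 without WT 4, 0.05 without HSD17B1-KI 1 and 0.06 without HSD17B1-KI 2. With quantile normalization the medians were 0.43 and 0.13. The median of all genes was -0.02 with the deposited scaling, -0.01 with the upper quartile and 0.02 with quantiles. With the replicate block, 0 members were DE, and the medians were 0.33 and 0.09. Mice with the same number deviated together with an r between -0.55 and 0.55, so the numbers did not pair them. Low read numbers limit Figla and Sohlh1, and 7 and 8 mice limit all members.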

Other observations

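The genes outside the oocyte lists whose levels followed the growing members most closely over the 15 mice, after genotype means were removed, were Oas1e with r = 0.97, Tcl1b2 and Fbxw24 with 0.96, Fbxw21 with 0.95, Gm15698 and Ccno with 0.94, and Khdc1b and E330017A01Rik with 0.93. None of these 8 was DE with limma-trend, and their log2 fold changes ran from -0.02 to 0.05. Without HSD17B1-KI 5 and WT 4, their r was 0.83 to 0.94.

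The genes closest to the mean of Figla, Nobox and Sohlh1 followed it less closely. They were 9130213A22Rik with r = 0.82, Ppp1r3b with 0.79, Nanos2 with 0.77, BC068157 with 0.76, Timm8a2, Cyp4f17 and 4930562C15Rik with 0.74 to 0.75, and Tsku with 0.73. Nanos2 encodes a germ cell RNA-binding protein, and averaged 27.0 ± 11 (SD, n = 7) normalized counts for HSD17B1-KI and 20.7 ± 6.59 (SD, n = 8) for WT, with an adjusted p of 0.749 with limma-trend. Ppp1r3b and Tsku had the lowest adjusted p of these 8 with limma-trend, 0.0972 and 0.119, and log2 fold changes of 0.95 and 0.50. Ppp1r3b was 395 ± 227 in HSD17B1-KI and 186 ± 23.8 in WT. All 8 genes were picked for the highest r among many genes, and how high such an r would be by chance was not tested. Figla, Nobox and Sohlh1 themselves moved together only in part. The r was 0.26 for Figla with Nobox, 0.24 for Nobox with Sohlh1 and 0.55 for Figla with Sohlh1. The 8 genes are therefore not shown to follow an early oocyte profile.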
